A study of Mus musculus with 23 samples.

Results

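The cytosolic ribosomal protein genes encode the proteins of the large (Rpl) and small (Rps) subunits of the ribosome that translates messenger RNA outside mitochondria. They were taken from the array by gene name: Rpl or Rps followed by a number and at most a letter and a further digit, or one of Rplp0, Rplp1, Rplp2 and Rpsa. This gave 83 genes of the 36095 gene names on the array, measured by 183 of 55681 probes. Of these, 76 are core members and 7 are paralogues by name (Rpl3l, Rpl7l1, Rpl10l, Rpl22l1, Rpl39l, Rps27l and Rps4y2). The core comprises 43 genes of the large subunit, 30 of the small subunit and the 3 stalk genes. The choice used names only, and the brightest of a gene's probes gave its value.

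The study followed mouse muscle formation, and all samples are male. Embryonic stem cells came from 3 lines: cGR8 (129Sv, replicate 1), RD1 (129X1/SvJ, replicate 2) and E14tg2 (129/Ola, replicate 3, 2 arrays of one sample averaged). Primary myoblasts of C57BL/6J mice were collected at passage 0 from cultures 26, 30 and 42, and as proliferating cells of passages 8 to 10 from cultures 21, 26 and 28. The latter 3 cultures, as replicates 1, 2 and 3, were also differentiated for 1, 2 or 4 days in horse serum medium on Matrigel, after growth with bFGF on collagen. Quadriceps was of a C57BL/6J mouse (replicate 1) and of mixed 129Sv/C57BL/6J background (replicates 2 and 3). There were 3 samples in each of these 7 groups. A single skeletal muscle sample of a NOD/ShiLtj mouse has no replicate and is given as a value only. The labels do not say whether the replicates are separate animals, so the p-values speak of sample-to-sample spread only, which may be in part technical.

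Ribosomal proteins are made in near-equal amounts and assembled with ribosomal RNA in the nucleolus, and their messages are among the most abundant of a growing cell. Most of these messages begin with a run of pyrimidines, the 5′ terminal oligopyrimidine (TOP) motif, through which the mTORC1 kinase and the RNA-binding protein Larp1 regulate their translation. A few members have paralogues restricted to certain tissues. Rpl3l is known as a form of Rpl3 found in heart and skeletal muscle, and Rpl10l and Rpl39l are known from male germ cells.

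Rpl3 and Rpl3l carry the clearest exchange in these data, so the probes that tell them apart are shown first. Each is 60 bases long. The Rpl3 probe printed here lies on chromosome 15 (chr15:79908489-79908772, minus strand, mm9) and spans an intron. The Rpl3l probe lies on chromosome 17 (chr17:24872413-24872681, plus strand, mm9) and also spans one. Capitals mark the bases that are identical where the probes cover the same coding stretch, which was 20 of 27 aligned bases, without gaps.
Rpl3: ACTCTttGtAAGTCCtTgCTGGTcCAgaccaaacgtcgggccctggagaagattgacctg
Rpl3l: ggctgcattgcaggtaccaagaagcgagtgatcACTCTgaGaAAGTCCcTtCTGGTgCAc
The probes overlap only at their ends, and the rest of each has no counterpart in the other.

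The pyrimidine run at the start of transcription was looked for in RefSeq promoter windows (build GRCm38.p6), which were given for 62 of the 83 members. A run of 8 or more consecutive C or T letters within 25 bases of the annotated start, read on the transcribed strand, was present in 30 of 56 core members (53.6%). It was present in 3 of 6 paralogues (50%) and in 22.3% of the 27025 genes with a window. On the opposite strand the share was 5.36% of core members and 20.3% of all genes. For a gene with several windows, the window with the longest run on the transcribed strand served for both strands. The strands were therefore not counted alike. The windows printed here hold the 15 bases before and after the start, with the run in capitals, for 4 core members that have it there and for Rpl3l.
Rpl7a (chr2:26910792-26910821, plus strand): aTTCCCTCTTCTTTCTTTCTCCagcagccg
Rpl15 (chr14:18270972-18271001, minus strand): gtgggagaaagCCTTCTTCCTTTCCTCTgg
Rps18 (chr17:33955651-33955680, minus strand): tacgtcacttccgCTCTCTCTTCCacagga
Rps6 (chr4:86857353-86857382, minus strand): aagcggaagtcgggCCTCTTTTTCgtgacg
Rpl3l (chr17:24727811-24727840, plus strand): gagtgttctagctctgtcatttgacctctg
The longest run near the Rpl3l start was 5 letters. Rpl3l does not stand for all paralogues, since Rpl22l1, Rps27l and Rpl39l had runs of 10, 9 and 8 letters. A match here is a match of letters and no measure of translation, and Rpl3 itself had no window.

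Values are log2 of the deposited processed signal minus the 75th percentile of the same array, so a level of 0 is the level that 1 in 4 spots exceed. Signals at that percentile lay between 261 and 765 intensity units on most arrays, but were 87.7 for proliferating replicate 1 and 208 for day 4 replicate 1. Differences were tested with limma over all 21 samples, and a call needed a p under 0.05 after Benjamini-Hochberg adjustment over all genes tested. The labelled cell types carried their markers: all 8 stem cell markers were above background in every stem cell sample, 7 of 8 myoblast markers in every passage 0 and proliferating sample (Myf5 was in none), all 8 myotube markers in every day 1 and day 4 sample and all 8 adult fibre markers in every quadriceps sample. By presence above background these lists did not set the culture groups apart. All 8 myotube markers were also above background in every passage 0 and proliferating sample. Their log2 summed level was 9.78 to 10.52 in passage 0 and 11.50 to 11.84 on day 1. The myoblast markers summed to 7.73 to 8.10 in passage 0 and to 8.97 to 9.59 on day 1. The quadriceps samples also held markers of other cells. Markers of red blood cells were above background for 4 of 5 genes in every sample, with a log2 summed level of 7.07 to 7.37 against at most 1.59 in the stem cell and culture samples. Endothelial markers were above background for 6 of 6 genes, with a summed level of 4.55 to 5.00 against 2.58 to 4.14 at day 4. Those of fibroblasts were so for 7 of 7 genes, at 8.03 to 8.91 against 3.34 to 4.13 at day 4. Leukocyte markers were so for 6 of 9 (Cd68 in none), at 5.67 to 6.27 against 5.61 to 6.20 at day 4. Proliferating samples overlapped quadriceps in the endothelial sum (2.79 to 5.11) and the leukocyte sum (4.66 to 6.54). Passage 0 samples held such markers too. There 7 of 7 fibroblast genes were above background in every sample, at 4.90 to 6.15, against 3.64 to 5.11 in proliferating samples. Leukocyte markers were so for 8 of 9 genes in passage 0, at 4.62 to 5.33. In proliferating samples they were so for 4 of 9, at 4.66 to 6.54. The part of these other cells in the results was not tested. In a tissue or culture measured in bulk, fewer cells of a type and less RNA per cell cannot be told apart.

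Of the 83 members, 80 were well above background in all 21 samples. The other 3 were Rpl3l, Rpl10l and Rpl39l. Most core members were high throughout, but Rpl21 ran from -2.28 to 2.07 and Rps21 from 0.74 to 6.22 over the 21 samples. The median of the core members is the simplest summary of the family. In stem cells this median was 8.98, 8.74 and 8.96 in replicates 1, 2 and 3. In passage 0 myoblasts it was 8.58, 8.63 and 8.41. Both groups were tight, and they did not overlap. In proliferating myoblasts it was 9.38, 9.04 and 8.21, the widest scatter but for day 4, and replicate 1 is the array with the lowest overall signal. It was 8.64, 8.94 and 8.28 on day 1 and 8.77, 8.54 and 8.33 on day 2. On day 4 it was 9.05, 8.51 and 7.73. Replicate 3 was thus the lowest of the cultures at each of these stages, and the culture stages overlapped each other. In quadriceps it was 7.35, 7.54 and 8.05, below all stem cell and culture samples except day 4 replicate 3, and in NOD/ShiLtj muscle it was 7.67.

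**Figure D1:**
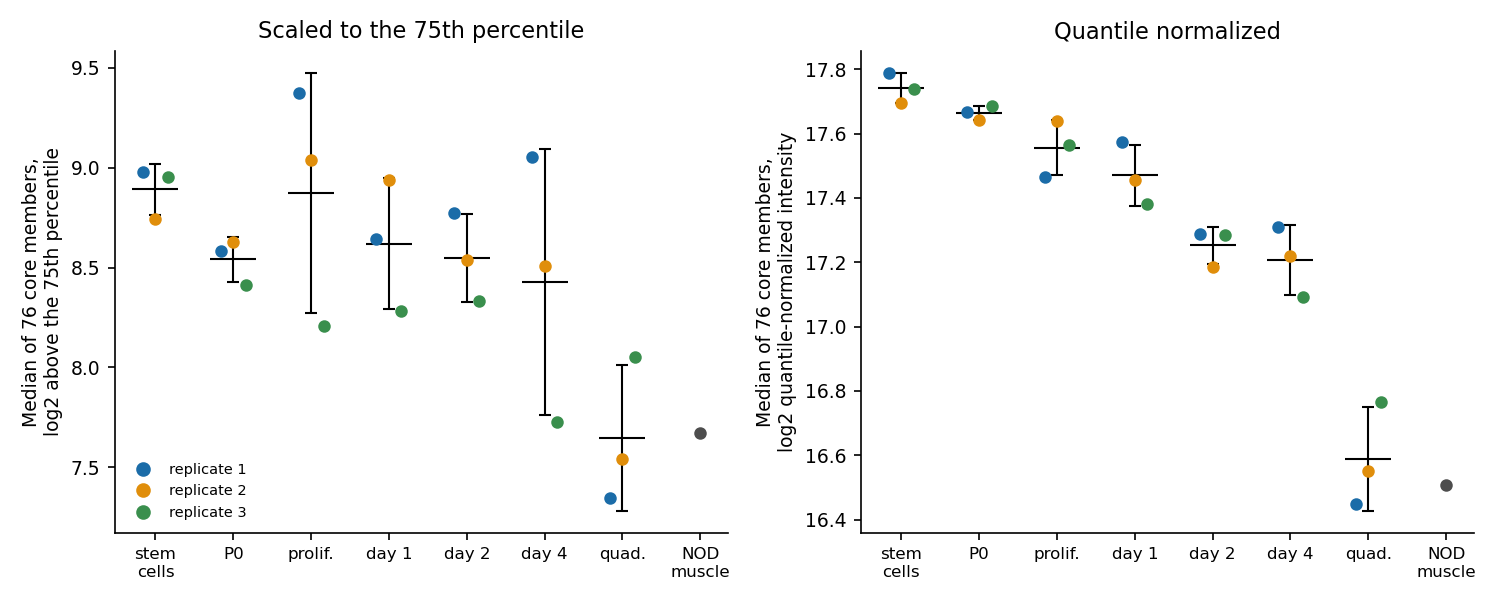
Median level of the 76 core members in each sample (points, coloured by replicate number), with the group mean and SD (black bars, n = 3; NOD/ShiLtj muscle n = 1), under scaling to the 75th percentile (left) and quantile normalization (right), both on a log2 axis. The quadriceps medians are the lowest group in both, at 7.65 ± 0.36 on the left, and day 4 replicate 3 (7.73) overlaps them only on the left.

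The spread within groups depended on how arrays were scaled. Under quantile normalization the same medians were 17.74 ± 0.05 in stem cells, 17.66 ± 0.02 in passage 0 myoblasts, 17.56 ± 0.09 in proliferating myoblasts, 17.47 ± 0.10 on day 1, 17.25 ± 0.06 on day 2, 17.21 ± 0.11 on day 4 and 16.59 ± 0.16 in quadriceps (SD, n = 3). The order of the group means was then one of steady decrease. Neighbouring groups overlapped for proliferating cells and day 1 and for day 2 and day 4, and the other neighbours did not overlap, passage 0 and proliferating cells only just. The position of proliferating myoblasts relative to passage 0 was therefore set by the scaling: higher by the percentile, lower by quantiles.

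Passage 0 myoblasts against stem cells compares cells committed to the muscle lineage with pluripotent ones. Here 6 of 83 members tested were lower, where 21.2% of all 22404 genes tested were lower, and 0 were higher, where 18.6% of all genes were. Of those 6, 5 were paralogues (Rpl10l, Rpl39l, Rps4y2, Rpl3l and Rpl7l1) and the sole core member was Rpl22. The median change of the members was -0.40 (log2), beside -0.26 for all genes tested. Over both directions 6 members had an unadjusted p under 0.05, and quantile normalization gave 3 higher and 7 lower, beside 21.1% of all genes each way. Within the 3 slides the core median changed by -0.55, -0.22 and -0.38, while Rpl22 was the only core gene called.

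Proliferating against passage 0 myoblasts asks what expansion in culture changes. Only Rpl39l was lower (1 of 81 members tested, beside 0.772% of all genes), and 0 members were higher, beside 0.393% of all genes. At an unadjusted p under 0.05 the member count was 1. The median change was 0.37, beside 0.14 for all genes. Within slides the core median changed by 1.10, -0.35 and 0.40, so the slides did not agree in sign. Differentiation for 1 day gave 0 calls of 80 members tested in limma, higher or lower, where 6.05% of all genes were higher and 3.34% lower. The unadjusted p was under 0.05 for 0 members. The median change was -0.29, and it was 0.01 without proliferating replicate 1, the array of lowest signal.

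Between proliferating myoblasts and day 4 myotubes, 1 of 81 members was higher (Rpl3l, beside 15.5% of all genes) and 1 was lower (Rpl3, beside 11.2%). With the replicate number as a block over all 7 groups, which stands for the culture in these stages, Rps4y2 was lower as well (log2 change -1.45, adjusted p = 0.037 in limma), giving 2 lower. In stem cells, passage 0 and quadriceps the replicate number does not stand for these cultures, though their samples enter the same blocks. Over all genes, the deviations of proliferating and day 4 samples of a culture correlated at 0.649, -0.303 and 0.381 in cultures 21, 26 and 28, so they did not deviate together in culture 26. From day 1 to day 4 Rpl3l was higher (1 of 81, beside 4.09% of all genes) and Rpl22l1 lower (1 of 81, beside 4.41%). Under quantile normalization the members lower on day 4 were 25 against proliferating cells (beside 15.8% of all genes) and 10 against day 1 (beside 6.8%). Each slide set samples of different cultures against each other, and within slides the core median of day 4 against proliferating cells changed by -0.78, 0.88 and -1.23. Within cultures, computed after the data were seen, it changed by -0.36, -0.24 and -0.48 in cultures 21, 26 and 28, with 58, 64 and 74 of the 76 core members below 0. From day 1 to day 4 the changes within cultures were 0.46, -0.27 and -0.50.

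Quadriceps against day 4 myotubes compares mature muscle with cultured myotubes. Of 82 members tested, 18 (22%) were lower, near the 18.3% of all genes, and 2 were higher (Rpl3l and Rpl39l), beside 15.6% of all genes. The median change was -0.72, where the median of all 18553 genes was -0.06. All 76 core members had a change below 0. Within slides the core median was -1.24, -1.38 and 0.32, the last on the slide that held day 4 replicate 3. Without that sample 52 members were lower, beside 19.4% of all genes. Without day 4 replicate 1 or 2 the count was 4, beside 15.1% and 15.7% of all genes. It was 5 without quadriceps replicate 1 (beside 15.2%) and 7 without quadriceps replicate 2 (beside 14.1%). The members' count thus moved far more than the share of all genes. Quantile normalization gave 56 lower, beside 21.4% of all genes.

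Against passage 0 myoblasts, 29 of 82 members were lower in quadriceps, beside 24.2% of 20940 genes, and 1 was higher (Rpl3l), beside 24.6%. The median change was -0.76, while the median of all genes was 0.15. Within slides the core median was -0.92, -0.87 and -0.50. Leaving out 1 sample gave 12, 11 and 19 lower without passage 0 replicates 1, 2 and 3, and 9 and 12 without quadriceps replicates 1 and 2. The share of all genes called lower was between 19.9% and 21.1% in these fits. Quantile normalization gave 77 lower, beside 28.3% of all genes. By the percentile 35.4% of the members were lower. In the large subunit 15 of 43 core members were lower, with a median of -0.75, and in the small subunit 11 of 30, with a median of -0.84; the subunits were not tested against each other.

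**Figure D2:**
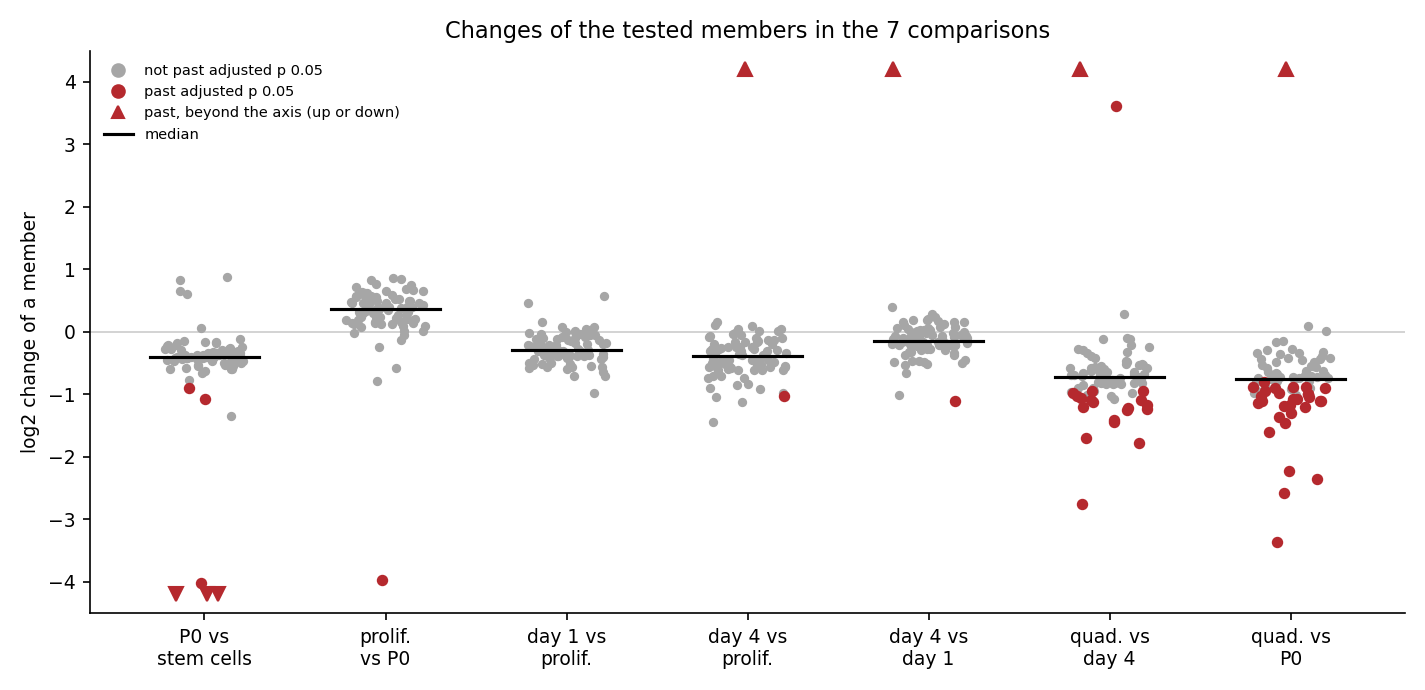
log2 change of every member tested (points) in the 7 comparisons, with the median as a black line; red points passed an adjusted p of 0.05 in limma, and triangles mark called members beyond the axis. In the quadriceps comparisons 18 and 29 red points lie below 0. These are 22% and 35.4% of the members tested, beside 18.3% and 24.2% of all genes. The 4 upward triangles are Rpl3l.

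Rpl3 and Rpl3l moved in opposite directions from the cultures to quadriceps. From stem cells to passage 0 both fell, Rpl3 from a group mean of 9.08 to 8.66 without a call. Rpl3 lies beside the peptidyl transferase centre of the large subunit, and Rpl3l is its muscle paralogue. In stem cells Rpl3l was at -2.62, -1.55 and -1.37, above background in all 3 samples. In passage 0 myoblasts it was at -6.39, -5.79 and -5.42 and in proliferating myoblasts at -3.83, -6.38 and -6.77, above background in none of these. It was at -5.73, -6.11 and -3.94 on day 1 (above background in 1 of 3 samples), at -2.48, -3.74 and -1.89 on day 2 and at 1.09, -0.06 and -0.16 on day 4. Day 2 and day 4 samples were all above background and did not overlap, with day 4 the higher. In quadriceps it was at 6.95, 7.10 and 7.59, far above every other group, and in NOD/ShiLtj muscle at 7.52.

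By the floor for probes not above background, Rpl3l was at least 15.8-fold higher on day 4 than in proliferating myoblasts (adjusted p = 1.3e-05 in limma). It was also higher on day 4 than on day 1 (adjusted p = 0.00025), but with only 1 of 3 day 1 samples above background no fold is given. Within each of the 3 cultures Rpl3l was higher on day 4 than in proliferating cells. Quadriceps exceeded day 4 by 121-fold (log2 change 6.92 ± 0.71 SE, adjusted p = 8.6e-07) and passage 0 myoblasts by at least 4268-fold (adjusted p = 5.7e-10). These calls held in each fit that left out 1 sample. Stem cells were at least 8.01-fold above passage 0 myoblasts (adjusted p = 0.00018), at a level well under that of muscle.

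Rpl3 was at 9.10, 8.97 and 9.16 in stem cells, 8.81, 8.74 and 8.45 in passage 0 myoblasts and 9.77, 9.04 and 8.40 in proliferating myoblasts. It was at 8.66, 8.91 and 8.55 on day 1, 8.69, 8.16 and 7.87 on day 2 and 8.42, 8.08 and 7.66 on day 4. In quadriceps it was at 5.16, 5.15 and 5.59, and in NOD/ShiLtj muscle at 4.14. The muscle samples thus lay apart from all others, while the day 4 samples overlapped the proliferating ones. Rpl3 was 6.75-fold lower in quadriceps than on day 4 (log2 change -2.75 ± 0.34 SE, adjusted p = 6.7e-06 in limma). It was 10.3-fold lower than in passage 0 myoblasts (-3.37 ± 0.34 SE, adjusted p = 3.7e-07). Within slides the former change was -2.92, -3.27 and -2.08. The fall on day 4 against proliferating cells (-1.02 ± 0.34 SE, adjusted p = 0.035) was not past the threshold without proliferating replicate 1 or 2 or without day 4 replicate 2 or 3, where the change ran from -0.67 to -1.03. Within cultures 21, 26 and 28 it was -1.36, -0.96 and -0.73.

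With every array scaled to the median of the core members instead, Rpl3 was still lower in quadriceps by -1.97 against day 4 (adjusted p = 1.4e-05) and by -2.47 against passage 0 (adjusted p = 4.5e-07), and Rpl3l was higher in both. The junction probe of Rpl3 printed above, which is not the brightest, had group means of 8.22 ± 0.19 in passage 0, 7.70 ± 0.37 on day 4 and 4.45 ± 0.32 in quadriceps (SD, n = 3). Both probes of Rpl3 were lower in quadriceps than on day 4, by -2.75 for the brightest and -3.25 for the junction probe.

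**Figure D3:**
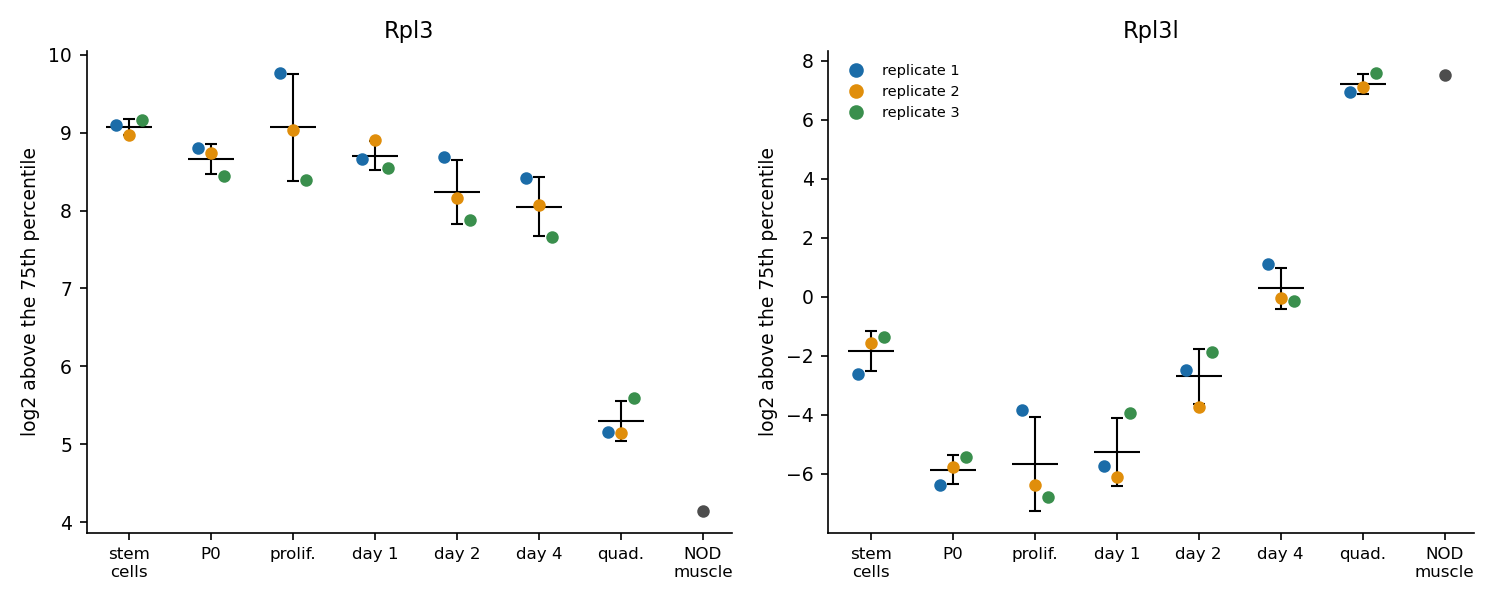
Levels of Rpl3 (left) and Rpl3l (right) in every sample, as log2 above the 75th percentile of the array; points are samples coloured by replicate number, bars are mean and SD (n = 3; NOD/ShiLtj muscle n = 1). Rpl3 lies between 5.15 and 5.59 in quadriceps and at 7.66 or more in the stem cell and culture samples, where Rpl3l stays at or under 1.09.

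Rps4y2, Rpl10l and Rpl39l had their highest levels in stem cells. Rps4y2, the name on the array for the locus that RefSeq calls Rps4l, is a relative of the X-linked Rps4x. It was at 6.40, 6.72 and 6.74 in stem cells and at 2.41, 2.40 and 1.81 in passage 0 myoblasts. In proliferating myoblasts it was at 2.81, 0.99 and 0.45, on day 1 at 1.12, 0.97 and -0.78, on day 2 at 2.04, 1.08 and 0.45, on day 4 at -0.39, 0.68 and -0.37 and in quadriceps at 0.17, -0.12 and -0.49. Stem cells were thus apart from all other samples. Rps4y2 was 21.3-fold lower in passage 0 myoblasts than in stem cells (-4.41 ± 0.59 SE, adjusted p = 8.7e-06 in limma) and fell further to quadriceps by 5.12-fold (adjusted p = 0.003). Rps4x was at 7.93 ± 0.09 in stem cells and 7.71 ± 0.14 in passage 0 (SD, n = 3), with no call, and was lower in quadriceps than in passage 0 (-1.14 ± 0.35 SE, adjusted p = 0.013), though not without quadriceps replicate 1 (-1.01).

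Rpl10l, a copy of the X-linked Rpl10, was at 2.02, 3.92 and 3.62 in stem cells, with cGR8 the lowest. It was above background in none of the passage 0, day 1 and day 4 samples, in 1 of 3 proliferating, 2 of 3 day 2 and 1 of 3 quadriceps samples. Stem cells were at least 256-fold above passage 0 myoblasts (adjusted p = 1.6e-07 in limma). Rpl10, which forms the peptidyl transferase region and joins the large subunit last, was at 9.49 ± 0.05 and 9.32 ± 0.13 in these groups and was called in no comparison.

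Rpl39l, a near copy of the exit tunnel protein Rpl39, was at 3.88, 4.64 and 4.15 in stem cells and at -1.60, -0.61 and -1.52 in passage 0 myoblasts. None of the proliferating, day 1, day 2 or day 4 samples had it above background, and it was back above it in quadriceps at -1.61, -1.99 and -2.32. Passage 0 myoblasts were 44.2-fold below stem cells (-5.47 ± 0.78 SE, adjusted p = 2e-05 in limma). Proliferating myoblasts were at least 5.46-fold below passage 0 (adjusted p = 0.019), a call lost without passage 0 replicate 2 or proliferating replicate 2. Quadriceps was at least 3.16-fold above day 4 (adjusted p = 0.0014). Against passage 0 the change of Rpl39l in quadriceps was -0.73 ± 0.78 SE and was not called (adjusted p = 0.45). Rpl39 was 2.65-fold lower in quadriceps than on day 4 (-1.41 ± 0.41 SE, adjusted p = 0.012), though not without day 4 replicate 1 (-1.04). It was 2.76-fold lower than in passage 0 (-1.46 ± 0.41 SE, adjusted p = 0.0067).

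The other 3 paralogues were above background everywhere and moved less. Rpl7l1, a relative of Rpl7 that works in ribosome assembly, was at 1.04, 1.83 and 1.83 in stem cells, at 0.42, 0.49 and 0.54 in passage 0 and at -0.43, -0.68 and -0.54 in quadriceps. It was lower in passage 0 than in stem cells (-1.08 ± 0.35 SE, adjusted p = 0.018 in limma), and lower in quadriceps than in passage 0 (-1.04 ± 0.35 SE, adjusted p = 0.02) or on day 4 (-1.21 ± 0.35 SE, adjusted p = 0.011). Each of these calls was lost when certain samples were left out: stem cell replicates 2 or 3 or passage 0 replicate 1 for the first, passage 0 replicates 2 or 3 or quadriceps replicate 2 for the second, and day 4 replicates 1 or 2 for the third. Rpl7 was called in none of them.

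Rpl22l1, a paralogue of the RNA-binding Rpl22, was at 7.13, 6.95 and 6.71 on day 1 and at 6.21, 5.90 and 5.38 on day 4 (-1.10 ± 0.31 SE, adjusted p = 0.036 in limma). That call was lost without day 1 replicate 1 or 2 or day 4 replicate 2 or 3. In quadriceps Rpl22l1 was lower than in passage 0 (-0.81 ± 0.31 SE, adjusted p = 0.041), a call lost without passage 0 replicate 1 or 2 or quadriceps replicate 1, and relative to the core members the change was 0.089. Scaled to the core members, Rpl22l1 was higher in quadriceps than on day 4 by 1.07 (adjusted p = 0.022), while by the percentile the change was 0.29 and not called. Rpl22 was lower in passage 0 than in stem cells by the brightest probe (-0.89 ± 0.34 SE, adjusted p = 0.043), a call lost when any 1 of these 6 samples was left out. Its second probe had the higher level in passage 0, at 3.74 against 2.83, so the direction for Rpl22 is uncertain. Rpl22 was also lower in quadriceps than in passage 0 (-0.88 ± 0.34 SE, adjusted p = 0.038), a call lost without quadriceps replicate 1 or 2 or without any 1 passage 0 sample. Rps27l, a target of p53, and Rps27 were called in no comparison by the percentile. Rps27l was at 7.27 ± 0.11 in passage 0 and 6.62 ± 0.39 in quadriceps.

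**Figure D4:**
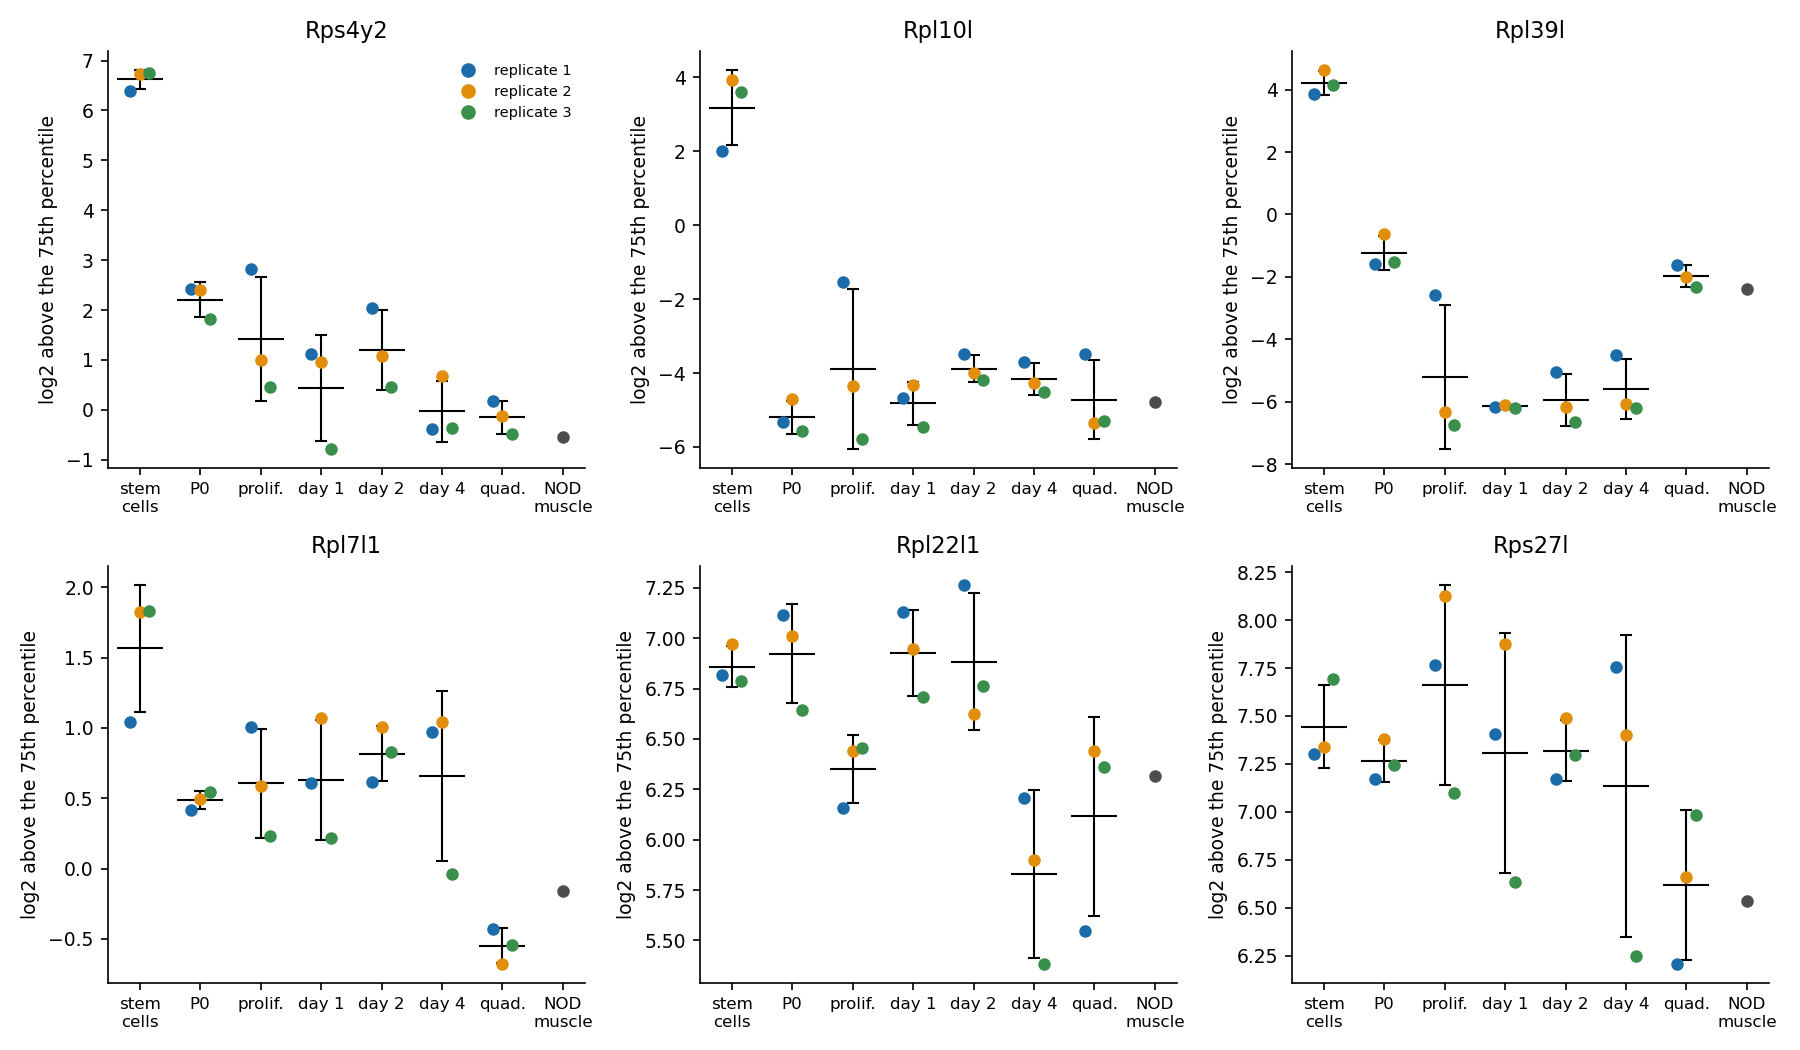
Levels of 6 paralogues in every sample, as log2 above the 75th percentile of the array, each with its own vertical scale; points are samples coloured by replicate number, bars are mean and SD (n = 3; NOD/ShiLtj muscle n = 1). Rps4y2 (6.62), Rpl10l (3.19) and Rpl39l (4.22) have their highest group mean in stem cells, where no other group overlaps them, and values near the bottom of the Rpl10l and Rpl39l panels are not above background.

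Among the core members the range of the 7 group means ran from 0.65 to 3.78, with a median of 1.25, and 72 of 76 had their lowest group mean in quadriceps. The 3 widest were Rpl3 (3.78), Rpl21 (2.80) and Rpl36a (2.62). The 3 narrowest were Rps29 (0.65), Rpl24 (0.69) and Rps20 (0.78). Rps29 was at 8.68 ± 0.15 in passage 0 and 8.35 ± 0.33 in quadriceps, and its probes lie on chromosome 2 in the files, at what may be a copy of the gene, so its origin is uncertain. The 4 Rps27 probes likewise lie on chromosome 9, and 1 of the 2 Rps4x probes on chromosome 3. Processed copies are common in this family, and a probe cannot always tell them from the parent gene.

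Rpl36a, a large subunit protein near the exit site, was at 7.53, 7.31 and 7.43 in passage 0, at 7.48, 7.17 and 6.06 on day 4 and at 5.00, 5.12 and 5.49 in quadriceps. Quadriceps lay below all samples of both groups. It was 3.24-fold lower than day 4 (-1.70 ± 0.35 SE, adjusted p = 0.00087 in limma) and 4.66-fold lower than passage 0 (-2.22 ± 0.35 SE, adjusted p = 4.1e-05). Both changes were also called relative to the core median (-0.91, adjusted p = 0.021, and -1.32, adjusted p = 0.0011). The 3 probes of Rpl36a were all lower in quadriceps than on day 4, by -0.65 to -1.70.

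Rpl21, whose probes are dim for the family, was at 1.47, 1.15 and 0.75 in passage 0, at -0.62, 1.20 and 0.38 on day 4 and at -2.28, -1.06 and -1.04 in quadriceps. Quadriceps was 5.98-fold below passage 0 (-2.58 ± 0.58 SE, adjusted p = 0.0013 in limma) and 3.43-fold below day 4 (-1.78 ± 0.58 SE, adjusted p = 0.024). The latter call was lost without day 4 replicate 2 or 3 or quadriceps replicate 1. The second probe of Rpl21 gave -0.86 against passage 0 and -0.77 against day 4, so the size of the change is uncertain. Rpl41, the smallest ribosomal protein, was 2.71-fold lower in quadriceps than on day 4 (-1.44 ± 0.38 SE, adjusted p = 0.007) and is named after its values were seen.

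The stalk proteins Rplp0, Rplp1 and Rplp2 recruit the elongation factors. Rplp0 was at 9.41, 9.38 and 9.24 in passage 0 and at 9.24, 9.20 and 9.63 in quadriceps, and these overlapped (change 0.01 ± 0.41 SE). Relative to the core members Rplp0 was therefore higher in quadriceps by this brightest probe (0.91, adjusted p = 0.0084 in limma), though by quantiles the change was -0.83. The other probes of Rplp0, above background in every sample, gave -0.59 and -0.60 by the percentile. Rplp1 changed by -0.73 ± 0.42 and Rplp2 by -0.41 ± 0.41 (SE), neither called. Rpsa, the laminin receptor precursor of the small subunit, changed by -0.29 ± 0.45 and was not called, while its other 3 probes gave -2.59, -1.20 and -0.90. Rplp0 is often used as a reference gene, and its change against passage 0 depended on the scaling and on the probe.

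Rps6, the substrate of the S6 kinases, was at 8.36, 8.53 and 8.21 in passage 0 and at 7.03, 7.26 and 7.72 in quadriceps. It was 2.04-fold lower (-1.03 ± 0.34 SE, adjusted p = 0.019 in limma), a call lost without passage 0 replicate 2 or quadriceps replicate 1 or 2. The dimmest probe of Rps6 was higher in passage 0 than in stem cells, at 3.80 against 2.24, while the other 2 were lower. Rpl5 and Rpl11, which bind Mdm2 as part of the 5S particle, did not share a call. Rpl5 was lower in quadriceps than in passage 0 (-1.19 ± 0.36 SE, adjusted p = 0.011), in each fit that left out 1 sample. Rpl11 changed by -0.71 ± 0.39 and was not called, though the 3 quadriceps samples (8.12, 8.49 and 8.96) were all below the passage 0 samples (9.26, 9.38 and 9.07). Rpl26, which binds the p53 message, changed by -0.75 ± 0.39 and was not called.

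Rps19, the gene first linked to Diamond-Blackfan anaemia, was at 7.06, 7.31 and 7.06 in passage 0 and at 5.31, 5.51 and 5.83 in quadriceps. It was 3.02-fold lower (-1.60 ± 0.41 SE, adjusted p = 0.0038 in limma), and lower relative to the core members too (-0.70, adjusted p = 0.025). The difference from day 4 (-1.24 ± 0.41 SE, adjusted p = 0.026) was lost without day 4 replicate 1 or 2 or quadriceps replicate 1 or 2. Rps24, of the same disease group, was lower in quadriceps than in passage 0 (-0.94 ± 0.37 SE, adjusted p = 0.044), a call lost when any 1 of the 6 samples was left out. Against stem cells its brightest probe was higher in passage 0 (9.18 against 8.57), but its other 3 probes were lower there, so no direction can be given.

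Rpl38, linked to translation of Hox messages, was lower in quadriceps than on day 4 (-1.06 ± 0.40 SE, adjusted p = 0.048 in limma). This was lost without day 4 replicate 1 or 2 or quadriceps replicate 1 or 2. Rpl38 was not called against passage 0. Rpl13a, which can leave the ribosome to silence inflammatory messages, changed by -1.0 ± 0.53 against passage 0 and was not called, with quadriceps at 6.72, 7.13 and 6.90 and passage 0 at 8.16, 7.67 and 7.94. Its second probe, above background in every sample, went from 6.22 ± 0.17 in passage 0 to 2.56 ± 0.52 in quadriceps (SD, n = 3), a change of -3.66 that is larger than that of the brightest Rpl3 probe. Dimmer probes of 2 other members, named after their values were seen, also changed more against passage 0 than the brightest one: Rpl31 by -3.21 against -0.66, and Rpl14 by -2.90 against -0.54. The brightest probe therefore does not speak for every probe of a gene. Probes disagreed for other members too: of 53 members with several probes above background in every sample, 12 had a probe of opposite sign to the brightest between passage 0 and stem cells, and 1 did between quadriceps and day 4.

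**Figure D5:**
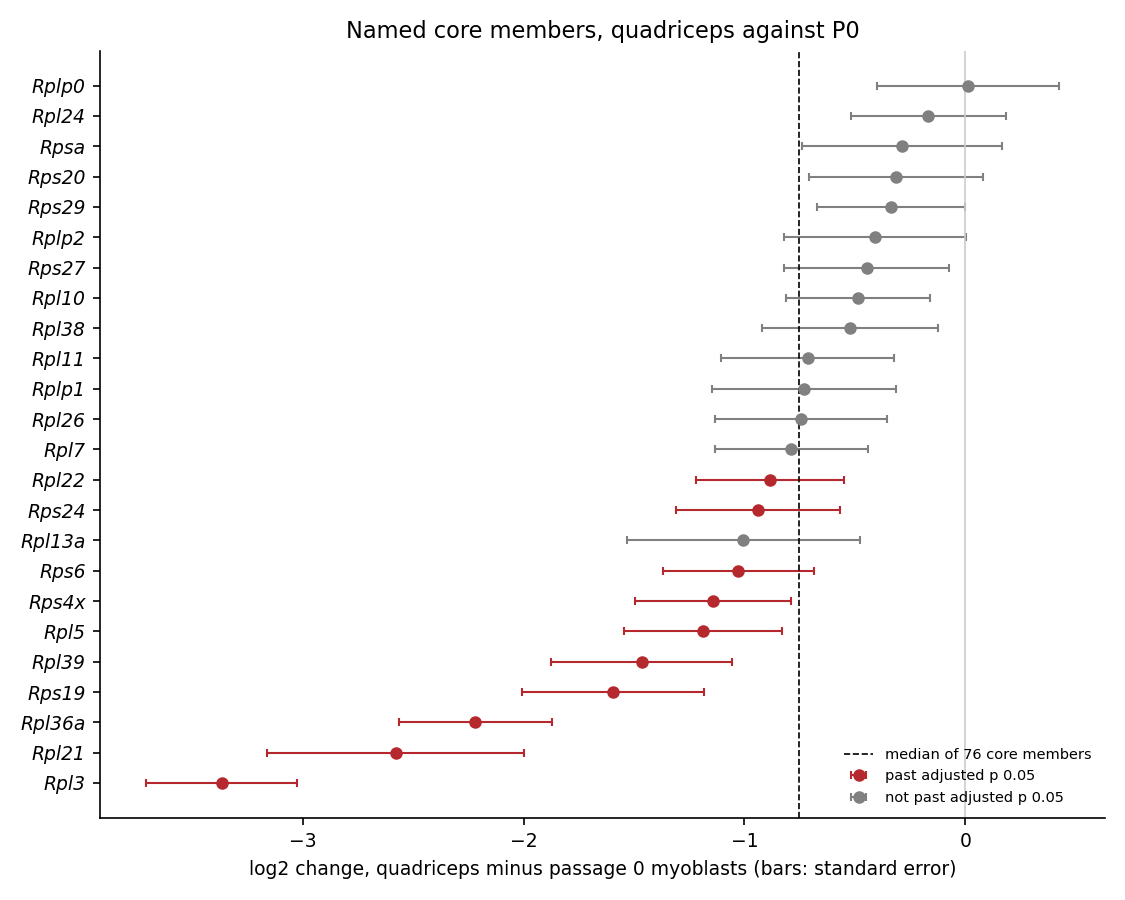
log2 change of the named core members between quadriceps and passage 0 myoblasts (points) with the standard error of the limma fit (bars); red points passed an adjusted p of 0.05, and the dashed line is the median of the 76 core members (-0.76). Rpl3 (-3.37), Rpl21 (-2.58) and Rpl36a (-2.22) lie furthest to the left, and Rplp0 (0.01) lies at 0.

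Genes that work with the family were followed as fixed lists. Of genes for RNA polymerase I and its factors, which make ribosomal RNA, 9 of 15 tested were lower in passage 0 myoblasts than in stem cells and 0 were higher, with a median of -1.14. Of genes for ribosomal RNA processing and ribosome assembly, 24 of 42 were lower and 0 higher, with a median of -0.98. Of all genes 21.2% were lower there. Nucleolin (Ncl), a nucleolar RNA-binding protein, changed by -1.43 (adjusted p = 0.007 in limma). The core members' own median there was -0.37. From proliferating myoblasts to day 4, 12 of 41 assembly genes were lower, beside 11.2% of all genes, and 1 was higher. Lower genes included fibrillarin (Fbl, -1.95, adjusted p = 0.0013), the methyltransferase of box C/D particles. In quadriceps against passage 0, 30 of 42 assembly genes were lower and 0 higher (median -1.28), and 4 of 15 polymerase I genes were lower, beside 24.2% of all genes. These lists were not tested against the ribosomal protein genes.

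Of other messages of the TOP class, 6 of 20 were lower and 0 higher in quadriceps than in passage 0, with a median of -0.31. This share of lower calls lay near the 24.2% of all genes. The translation elongation factor Eef1a1 changed by -3.35 (adjusted p = 6.1e-07 in limma), beside -3.37 for Rpl3. Poly(A)-binding protein Pabpc1 changed by -2.84. Of the ribosomal fusion and ribosome-bound genes outside the naming rule, 1 of 3 (Fau) was lower in quadriceps than on day 4, beside 18.3% of all genes. Myc, a factor that drives the transcription of ribosome genes, changed by -1.99 from proliferating cells to day 1 (adjusted p = 0.041). Of the 8 genes tested in its network 1 was lower, beside 3.34% of all genes, and the median was 0.13. The 2 that were higher, beside 6.05% of all genes, were Mxd1 and Mxd4, which antagonise Myc. Among TOP and mTORC1 regulators 4 of 20 were higher on day 1 than in proliferating cells and 0 lower, beside 6.05% and 3.34% of all genes. Genes of mitochondrial ribosomal proteins serve a separate ribosome. Of these, 27 of 77 were higher in quadriceps than in passage 0 and 1 lower, with a median of 0.64, beside 24.6% of all genes higher. On day 4 13 were higher and 1 lower than in proliferating cells, beside 15.5% of all genes higher.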

How the data were processed

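RNA of 21 samples in 7 groups, and of 1 NOD/ShiLtj muscle sample, was measured on 1-colour Agilent arrays (23 arrays, 3 slides). The deposited files give spot intensity from Feature Extraction 10.7.3.1, detrended but not scaled between arrays, per the file headers, with probe positions in mm9. The series table deposited by the authors holds log2 values of the same arrays, which correlated with the scanner values at 0.954 to 0.991; how they were normalized is not given in the sources used here, and they served as an alternative.

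From these, log2 of the processed signal was taken minus each array's 75th percentile, repeat spots were averaged, and the brightest probe stood for its gene. Outlier spots and controls were left out. limma 3.58.1 in R 4.3.3 fitted the 7 groups together without a block (lmFit, eBayes, two-sided, Benjamini-Hochberg over all genes tested). Genes entered a comparison where 1 or both groups had the probe well above background throughout. Where a probe was not above background in a whole group, the fold is given as "at least": the bright group's mean against a floor averaged over the dim group's arrays (the dim probe's own signal, or, if higher, the weakest signal that the array has well above background). The number of arrays limits the precision. The fit was also run on simulated data with noise drawn separately for each gene. That setting holds no shift shared by many genes of an array, so it cannot speak for the counts of members. Python 3.11.15 did the rest.

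Proliferating and day 1, 2 and 4 samples share culture numbers in the labels and are paired by them; deviations of same-numbered day 1 and day 4 samples correlated at 0.195, 0.513 and 0.746 over 12913 genes, and those of the other stage pairs at -0.312 to 0.649, so the pairing rests on the labels. The paralogues, their parents, the 3 largest called non-overlapping changes each way per comparison, a set with known roles and the members of widest and narrowest range were named. The members, lists and rules were chosen with earlier results of these data known. Alternatives were background correction, normalization, scaling to the core members, the probe rule, the filter, slide and replicate blocks, the NOD/ShiLtj sample and each sample left out.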

Additional observations from a re-analysis of the deposited data

Results flagged for a closer look

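The NOD/ShiLtj muscle sample entered no comparison. Rpl3l was at 7.52 there (log2 above the 75th percentile of the array), above all 18 stem cell and culture samples, of which the highest was day 4 replicate 1 at 1.09. It lay between quadriceps replicates 2 and 3 (7.10 and 7.59). The sample is single, so the difference from them was not tested.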

How the results depend on the processing

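The low signal of proliferating replicate 1 and day 4 replicate 1 limits what single genes show, and scaling set most counts. Percentages in brackets are the shares of all genes called the same way. Passage 0 against stem cells: members higher were 1 with normexp (17.4%), 3 with quantiles (21.1%) and 3 with the authors' values (20.9%). They were 1 without both low-signal arrays, an alternative chosen after seeing the data (21.3%), and 0 with any sample left out (15.8% to 17%). Members lower were 3 with the filter in both groups (15.5%), 1 among core members only (21.2%) and 4 to 5 with a sample left out (17.6% to 19.4%). The median was -0.13 with quantiles, -0.11 with the authors' values and -0.43 to -0.30 with a sample left out. Proliferating against passage 0: lower were 0 with normexp (0.801%), the both-group filter (0.164%) or core members only (0.772%), and 0 to 1 with a sample left out (0.167% to 1.43%). The median turned to -0.12 with quantiles and -0.18 with the authors' values, and was 0.08 to 0.68 with a sample left out. Day 1 against proliferating: the median turned to 0.012 without the low-signal arrays and was -0.59 to 0.012 with a sample left out (0.012 without proliferating replicate 1). Day 4 against proliferating: higher were 0 with the both-group filter (13.5%) or core members only (15.5%). Lower were 2 with normexp (9.85%), 25 with quantiles (15.8%), 26 with the authors' values (16.8%) and 2 with the replicate block (11.5%). They were 0 with the mean of all probes (10.9%), with no filter (5.43%) or without the low-signal arrays (10.9%). With a sample left out they were 0 to 8 (8.2% to 13%), and the median was -0.70 to 0.030 (0.030 without day 4 replicate 3). Day 4 against day 1: higher were 0 with the both-group filter (3.96%) or core members only (4.09%). Lower were 10 with quantiles (6.8%), 16 with the authors' values (8.22%), 0 with no filter (1.65%) or core members only (4.41%). With a sample left out they were 0 to 1 (1.97% to 4.65%), and the median was -0.44 to 0.28, turning to 0.07 without day 1 replicate 2 and 0.28 without day 4 replicate 3. Quadriceps against day 4: higher were 1 with the both-group filter (10.6%) and 0 among core members (15.6%). Lower were 31 with normexp (17.3%), 56 with quantiles (21.4%), 64 with the authors' values (22.2%) and 10 with no filter (9.29%). They were 7 without the low-signal arrays (18.5%) and 4 to 52 with a sample left out (14.1% to 19.4%), where the median was -1.13 to -0.42. Quadriceps against passage 0: higher were 0 with the both-group filter (25.7%) or core members only (24.6%). Lower were 51 with normexp (22.3%), 77 with quantiles (28.3%), 78 with the authors' values (28.6%) and 9 to 28 with a sample left out (19.9% to 21.5%). The median was -1.04 with quantiles, -1.06 with the authors' values and -0.93 to -0.63 with a sample left out. The replicate block moved no other count of members by over 1.5 times. Rpl22 turned to 0.012 against stem cells with the mean of probes and to 0.010 in quadriceps against passage 0 scaled to the core members, where Rpl22l1 turned to 0.089. Of 560 alternative values for the 34 called changes of named genes, 471 kept direction and call, 86 lost the call and 3 turned. The cause of these shifts was not tested, except that core members only leaves out the paralogues.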
